A study of Mus musculus with 10 samples.

Results

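The genes described here are 9 genes of the chemokine system, namely the CXC chemokine ligands *Cxcl1*, *Cxcl2*, *Cxcl10*, *Cxcl12* and *Cxcl16* and the chemokine receptors *Cxcr6*, *Ccr1*, *Ccr2* and *Cx3cr1*. They were taken by name from a list, out of 55487 genes counted in 10 RNA sequencing libraries of the mouse mammary gland. The list was chosen with earlier results of these data known. The gene identifiers of the count tables were paired with mouse symbols, and each of the 9 symbols matched 1 row.

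The libraries came from female BALB/c mice that were 10 wk old and in diestrus. WT mice carried *Cebpb* fl/fl alleles without Cre, and *Cebpb*ΔM mice carried *Cebpb* fl/fl with the Csf1r-iCre transgene, which deletes *Cebpb*, the gene of the transcription factor C/EBPβ, in myeloid cells that express CSF1R. The sample labels call the genotypes C/EBPb knockdown and wild type. Mammary epithelial cells (MECs) were enriched by removing cells of other lineages (WT 1 and 3, *Cebpb*ΔM 1 and 3), and macrophages were enriched by positive selection for F4/80 (WT 4 and 5, *Cebpb*ΔM 4, 5, 6 and 7). Both cell types came from mice that all carried the floxed alleles, and Csf1r-iCre acts on myeloid cells in general rather than on mammary macrophages alone.

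Chemokines are small secreted proteins that direct the movement of cells by binding G protein-coupled receptors. CXCL1 and CXCL2 recruit neutrophils through CXCR2, CXCL10 is induced by interferon and attracts activated T cells through CXCR3, and CXCL12 is a stromal chemokine that retains cells through CXCR4. CXCL16 and CX3CL1 are made as membrane-anchored proteins with CXCR6 and CX3CR1 as their receptors, while CCR2 brings monocytes into tissue toward CCL2 and CCL7, and CCR1 binds several CC ligands, among them CCL3.

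Each MEC library held 25310926 to 27008166 counts, and each macrophage library held 16935000 to 20174722. Levels are given as CPM (counts scaled to a common library total) scaled by trimmed mean of M-values (TMM) over all 10 libraries, and the floor of what a library can show was set at 3 counts, which is 0.117 to 0.122 CPM in MECs and 0.143 to 0.180 CPM in macrophages. These floors cover counting error only. *Cebpb* itself was counted 13 and 15 in WT macrophages and 16, 13, 5 and 4 in *Cebpb*ΔM macrophages 4 to 7, so that the genotypes overlapped and this gene does not check the genotype labels. The summed level of 8 macrophage markers, such as *C1qa*, *Csf1r* and *Adgre1*, was 29.5 to 45.6 CPM in MECs, 2765 to 4158 CPM in WT macrophages and 4477 to 6506 CPM in *Cebpb*ΔM macrophages, with all 8 above the floor in both macrophage groups. The macrophage libraries also held RNA of other cells. Their summed level of 8 epithelial markers was 9179 to 9292 CPM in WT and 5166 to 6698 CPM in *Cebpb*ΔM (28785 to 36599 CPM in MECs), that of 6 fibroblast markers was 6550 to 6972 CPM and 3244 to 7599 CPM, and that of 6 endothelial and pericyte markers was 1166 to 1396 CPM and 817 to 1833 CPM. In these bulk samples, fewer cells of a type and less RNA per cell cannot be told apart.

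**Figure D1:**
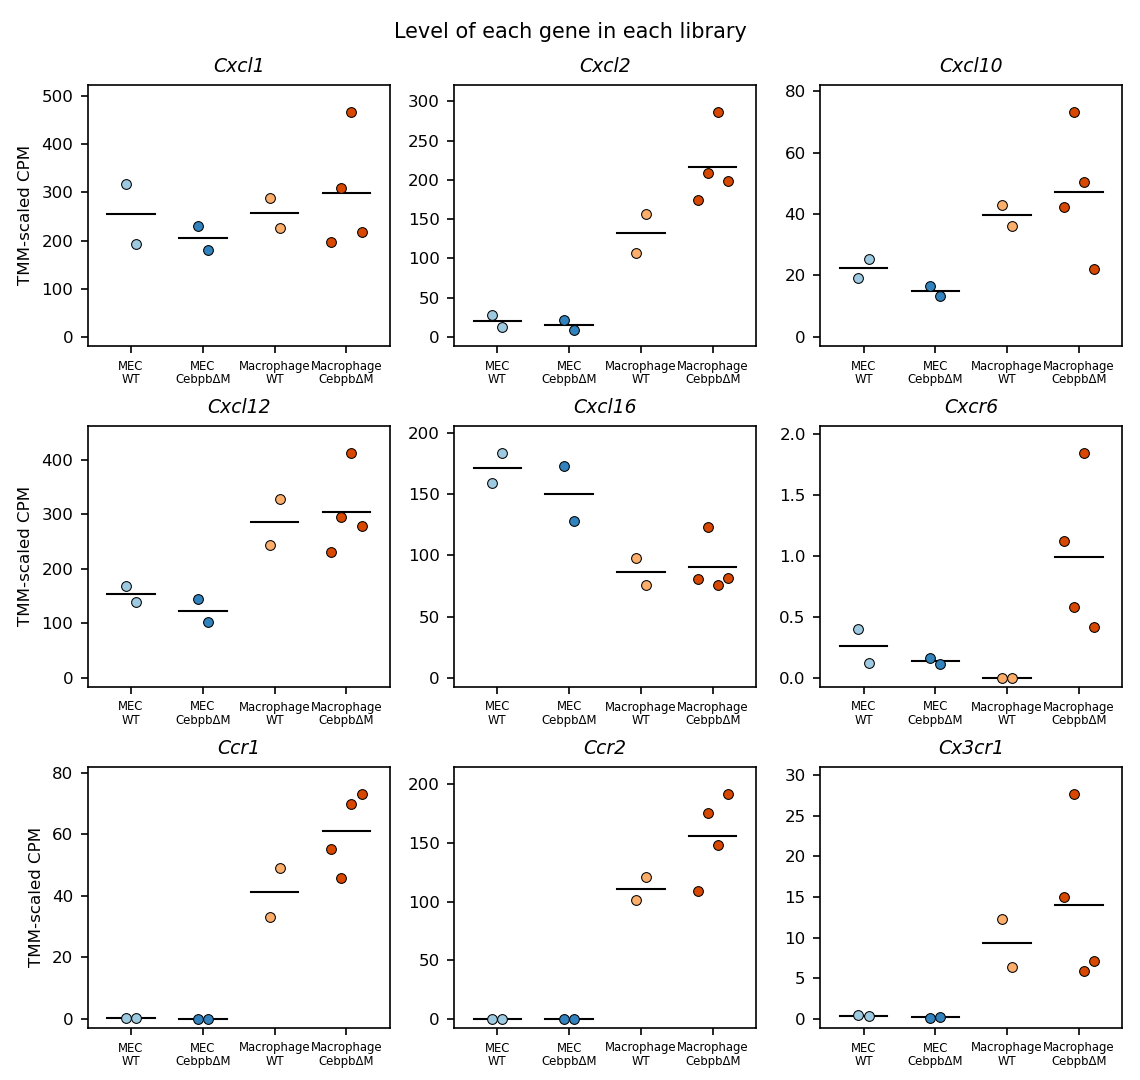
Each panel plots 1 gene, with its TMM-scaled CPM on the vertical axis and the 4 groups on the horizontal axis (2 libraries each for MEC WT, MEC CebpbΔM and macrophage WT, 4 for macrophage CebpbΔM). Points are libraries and bars are group means. Ccr1, Ccr2 and Cx3cr1 are near 0 in MECs, Cxcl16 is higher in MECs, and the macrophage genotypes do not overlap for Cxcl2 and Cxcr6.

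To find where each gene was expressed, WT macrophages were compared with WT MECs, and *Cebpb*ΔM macrophages with *Cebpb*ΔM MECs, by edgeR's quasi-likelihood (QL) test in 1 fit of all 10 libraries, with Benjamini–Hochberg adjustment over 18323 genes and a threshold of 0.05. In WT mice 7 of the 9 genes differed between the cell types, where 25.5% of all genes tested did. On leaving out 1 library this count was 4 to 6, and it was 4 without WT MEC 1, WT MEC 3 or WT macrophage 5. In each of these last fits fewer of all genes were called too. Of the 7 genes called with all libraries, 5 were higher in macrophages (14.8% of all genes) and 2 were lower (10.7%). In *Cebpb*ΔM mice 7 of 9 also differed, where 33.7% of all genes did, with 6 higher in macrophages (18.9% of all genes) and 1 lower (14.7%). The *Cebpb*ΔM count too moved, up or down, on leaving out 1 library. The median log2 difference of the 9 genes was 0.90 in WT and 2.78 in *Cebpb*ΔM, and that of all genes tested was 0.058 and 0.069. Without scaling factors the median of all genes moved to 0.237 and 0.144. Cell type and experiment (isolation and library set) cannot be told apart in these comparisons.

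The receptors *Ccr2*, *Ccr1* and *Cx3cr1* were found almost entirely in the macrophage libraries. *Ccr2* (ENSMUSG00000049103, GRCm38 chromosome 9 from 124101950 to 124113557) had 0 counts in each of the 4 MEC libraries, 101 and 121 CPM in WT macrophages 4 and 5, and 109, 175, 148 and 192 CPM in *Cebpb*ΔM macrophages 4, 5, 6 and 7. All 6 macrophage libraries thus lay far above the floor. Bounds were taken against the floor of 3 counts per library, averaged over the 2 MEC libraries of a genotype. By its mean *Ccr2* was at least 911-fold higher in macrophages in WT (edgeR adjusted *P* = 1.33e-06) and at least 1308-fold higher in *Cebpb*ΔM (edgeR adjusted *P* = 5.79e-07).

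*Ccr1* (ENSMUSG00000025804, chromosome 9 from 123962124 to 123968692) was counted 4 and 10 in WT MECs 1 and 3, and 1 and 0 in *Cebpb*ΔM MECs 1 and 3. In macrophages it had 33.2 and 49.1 CPM in WT 4 and 5, and 55.3, 45.8, 69.8 and 73.2 CPM in *Cebpb*ΔM 4 to 7. The cell types did not overlap, and the log2 difference between them was 7.15 (SE 0.48, edgeR adjusted *P* = 2.53e-06) in WT and 11.22 (SE 0.63, edgeR adjusted *P* = 5.56e-07) in *Cebpb*ΔM. The second value rests on a single MEC count.

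*Cx3cr1* (ENSMUSG00000052336, chromosome 9 from 119901616 to 120069879), the fractalkine receptor of tissue macrophages and patrolling monocytes, was counted between 3 and 11 in the MEC libraries. Its level was 12.3 and 6.38 CPM in WT macrophages 4 and 5, and 15.0, 27.7, 5.92 and 7.15 CPM in *Cebpb*ΔM macrophages 4 to 7. Within the *Cebpb*ΔM group the highest library was 4.68 times the lowest, the widest such ratio of the 9 genes. The log2 difference between macrophages and MECs was 4.51 (SE 0.80, edgeR adjusted *P* = 0.00203) in WT and 6.24 (SE 0.86, edgeR adjusted *P* = 2.52e-04) in *Cebpb*ΔM. In the annotation the span of *Cx3cr1* overlaps *Gorasp1*, *Csrnp1* and *Xirp1* on its own strand, so reads in shared exons may be missing from its counts.

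*Cxcr6* (ENSMUSG00000048521, chromosome 9 from 123806475 to 123811760), the receptor of CXCL16 that is known from T cells and natural killer cells, was low in all groups. It was counted 10 and 3 in WT MECs 1 and 3, 4 and 3 in *Cebpb*ΔM MECs 1 and 3, 0 and 0 in WT macrophages 4 and 5, and 22, 12, 34 and 7 in *Cebpb*ΔM macrophages 4 to 7. The *Cebpb*ΔM macrophages, at 0.420 to 1.85 CPM, stood above the other 3 groups, which reached 0.405 CPM. In WT mice the level was lower in macrophages (edgeR adjusted *P* = 0.0493), on 10 and 3 counts in WT MECs against 0 in WT macrophages. This call was lost in every leave-one-out fit that kept the gene, with edgeR adjusted *P* from 0.0544 to 0.187. In *Cebpb*ΔM mice the log2 difference was 2.78 (SE 1.05, edgeR adjusted *P* = 0.0672), and it passed without WT macrophage 4 or without WT macrophage 5 (edgeR adjusted *P* = 0.0447 and 0.0448).

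Of the ligands, *Cxcl2* showed the largest difference between the cell types. *Cxcl2* (ENSMUSG00000058427, chromosome 5 from 90903871 to 90905938) had 27.3 and 12.7 CPM in WT MECs 1 and 3, 21.7 and 9.09 CPM in *Cebpb*ΔM MECs 1 and 3, 107 and 157 CPM in WT macrophages 4 and 5, and 174, 209, 287 and 198 CPM in *Cebpb*ΔM macrophages 4 to 7. Every macrophage library was above every MEC library. The log2 difference was 2.72 (SE 0.46, edgeR adjusted *P* = 0.00152) in WT and 3.82 (SE 0.46, edgeR adjusted *P* = 1.03e-04) in *Cebpb*ΔM, and it passed under all 16 alternatives of each comparison at the threshold of 0.05.

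Its neighbor *Cxcl1* (ENSMUSG00000029380, chromosome 5 from 90891241 to 90893115), whose end lies 10756 nt before the start of *Cxcl2* and whose protein acts on the same receptor, was abundant in all 4 groups. It had 318 and 193 CPM in WT MECs 1 and 3, 231 and 181 CPM in *Cebpb*ΔM MECs 1 and 3, 288 and 226 CPM in WT macrophages 4 and 5, and 198, 309, 468 and 218 CPM in *Cebpb*ΔM macrophages 4 to 7. All 4 groups overlapped. The log2 difference between macrophages and MECs was 0.01 (SE 0.39, edgeR adjusted *P* = 0.991) in WT, where its sign was opposite with RLE, DESeq2, filterByExpr and no low-count filter and without WT MEC 3 or WT macrophage 4, and 0.53 (SE 0.34, edgeR adjusted *P* = 0.259) in *Cebpb*ΔM. The 2 genes are thus adjacent and of like function, and their log2 profiles over the 10 libraries, each centered on its own mean, differed by a root mean square of 1.62.

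The sequence before the start of these genes is shown because *Cebpb* encodes a DNA-binding factor and because *Cxcl1*, *Cxcl2*, *Cxcl10* and *Ccr1* hold matches to the motifs searched. Promoter sequences were matched by symbol for 8 of the 9 genes (RefSeq, build GRCm38.p6), all except *Cxcl16*. The 250 bases before each RefSeq start were searched on both strands for the C/EBP motif TTGCNNAA, the NF-κB motif (κB), the interferon-stimulated response element GAAANNGAAA and the PU.1 motif GAGGAA. A match is a description of letters and not a shown binding site. Capitals mark the matches in the following sequences, which are written 5′ to 3′ on the strand of the gene and end before the first base that the count tables place in an exon. Those of *Cxcl1* and *Cxcl2* are on the plus strand at chr5:90890995-90891240 and chr5:90903649-90903870, and those of *Cxcl10* and *Ccr1* on the minus strand at chr5:92348890-92349139 and chr9:123968693-123968942.
Cxcl1: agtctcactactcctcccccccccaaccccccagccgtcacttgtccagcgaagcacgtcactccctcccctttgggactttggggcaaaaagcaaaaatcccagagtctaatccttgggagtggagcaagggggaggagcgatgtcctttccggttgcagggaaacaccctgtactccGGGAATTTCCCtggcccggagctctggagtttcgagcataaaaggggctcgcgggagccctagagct
Cxcl2: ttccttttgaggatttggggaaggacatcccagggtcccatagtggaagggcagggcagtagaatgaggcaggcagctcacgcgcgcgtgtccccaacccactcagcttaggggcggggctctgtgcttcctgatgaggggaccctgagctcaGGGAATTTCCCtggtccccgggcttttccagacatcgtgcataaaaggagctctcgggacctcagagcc
Cxcl10: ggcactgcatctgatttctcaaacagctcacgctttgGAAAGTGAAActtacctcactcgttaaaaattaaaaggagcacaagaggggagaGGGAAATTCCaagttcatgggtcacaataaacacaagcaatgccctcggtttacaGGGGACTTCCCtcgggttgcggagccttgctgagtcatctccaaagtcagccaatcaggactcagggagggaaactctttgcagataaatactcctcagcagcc
Ccr1: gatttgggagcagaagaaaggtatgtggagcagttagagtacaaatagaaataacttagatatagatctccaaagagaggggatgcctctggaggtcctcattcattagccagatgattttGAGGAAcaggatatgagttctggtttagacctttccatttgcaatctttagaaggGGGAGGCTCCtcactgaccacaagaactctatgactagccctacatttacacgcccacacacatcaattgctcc

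The same 11 letters, GGGAATTTCCC, made up the κB matches of *Cxcl1* and *Cxcl2*, at 71 and 97 bases before the start, where matches on the plus and minus strands overlap by all but 1 base. *Cxcl10* held a κB match at 159 bases, overlapping matches at 104 and 103 bases, and the response element at 213 bases before its start. *Ccr1* held a κB match at 74 bases and a PU.1 match at 129 bases before its start. Of all 32851 promoters in the table, 7.25% held a κB match in the same window, 2.98% the response element and 23.3% the PU.1 motif. The C/EBP motif matched in 9.56% of all promoters and in 0 of the 8 found here, which says only that these letters are not in this window.

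*Cxcl10* (ENSMUSG00000034855, chromosome 5 from 92346638 to 92348889), with the response element shown above, had 19.1 and 25.5 CPM in WT MECs 1 and 3, 16.6 and 13.4 CPM in *Cebpb*ΔM MECs 1 and 3, 43.0 and 36.2 CPM in WT macrophages 4 and 5, and 42.4, 73.4, 50.4 and 22.1 CPM in *Cebpb*ΔM macrophages 4 to 7. *Cebpb*ΔM macrophage 7 lay among the WT MECs, and the other macrophage libraries were above all MECs. The log2 difference was 0.83 (SE 0.43, edgeR adjusted *P* = 0.181) in WT and 1.65 (SE 0.40, edgeR adjusted *P* = 0.00833) in *Cebpb*ΔM. The second call was lost without *Cebpb*ΔM MEC 1 or without *Cebpb*ΔM MEC 3 (edgeR adjusted *P* = 0.0526 and 0.0768). Summed levels of 8 interferon-stimulated genes, such as *Isg15* and *Ifit1*, were 76.9 to 215 CPM in MECs, 273 to 309 CPM in WT macrophages and 362 to 656 CPM in *Cebpb*ΔM macrophages, with the highest sum in *Cebpb*ΔM 4 and the highest *Cxcl10* in *Cebpb*ΔM 5.

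*Cxcl12* (ENSMUSG00000061353, chromosome 6 from 117168535 to 117181367) had 168 and 139 CPM in WT MECs 1 and 3, 145 and 102 CPM in *Cebpb*ΔM MECs 1 and 3, 244 and 328 CPM in WT macrophages 4 and 5, and 230, 295, 413 and 279 CPM in *Cebpb*ΔM macrophages 4 to 7. The cell types did not overlap, and the log2 difference was 0.90 (SE 0.29, edgeR adjusted *P* = 0.0423) in WT and 1.30 (SE 0.26, edgeR adjusted *P* = 0.00331) in *Cebpb*ΔM. The WT call was lost with RLE (edgeR adjusted *P* = 0.0535) and without WT MEC 1 (0.101), WT MEC 3 (0.221), *Cebpb*ΔM macrophage 5 (0.0504) or WT macrophage 5 (0.183). Among the 6 macrophage libraries, *Cebpb*ΔM 6 had both the highest *Cxcl12* and the highest endothelial and pericyte marker sum (1833 CPM). *Cebpb*ΔM 4 had the lowest of both (230 and 817 CPM). *Cebpb*ΔM 6 also had the lowest fibroblast marker sum (3244 CPM) and the highest macrophage marker sum (6506 CPM). The part of any of these cell types in the level of this gene was not tested.

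*Cxcl16* (ENSMUSG00000018920, chromosome 11 from 70453983 to 70459984) was the ligand with the opposite pattern. It had 159 and 184 CPM in WT MECs 1 and 3, 173 and 128 CPM in *Cebpb*ΔM MECs 1 and 3, 97.7 and 75.6 CPM in WT macrophages 4 and 5, and 81.1, 123, 75.6 and 81.7 CPM in *Cebpb*ΔM macrophages 4 to 7. Every MEC library was above every macrophage library, and the log2 difference of macrophages over MECs was -0.98 (SE 0.27, edgeR adjusted *P* = 0.0209) in WT and -0.73 (SE 0.22, edgeR adjusted *P* = 0.0271) in *Cebpb*ΔM. The WT call was lost without scaling factors (edgeR adjusted *P* = 0.0539) and without WT MEC 1 (0.0537), WT MEC 3 (0.115) or WT macrophage 5 (0.152). The *Cebpb*ΔM call was lost without scaling factors (edgeR adjusted *P* = 0.0554) and without *Cebpb*ΔM MEC 1 (0.262) or *Cebpb*ΔM macrophages 4 (0.0550), 6 (0.0626) or 7 (0.0654).

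**Figure D2:**
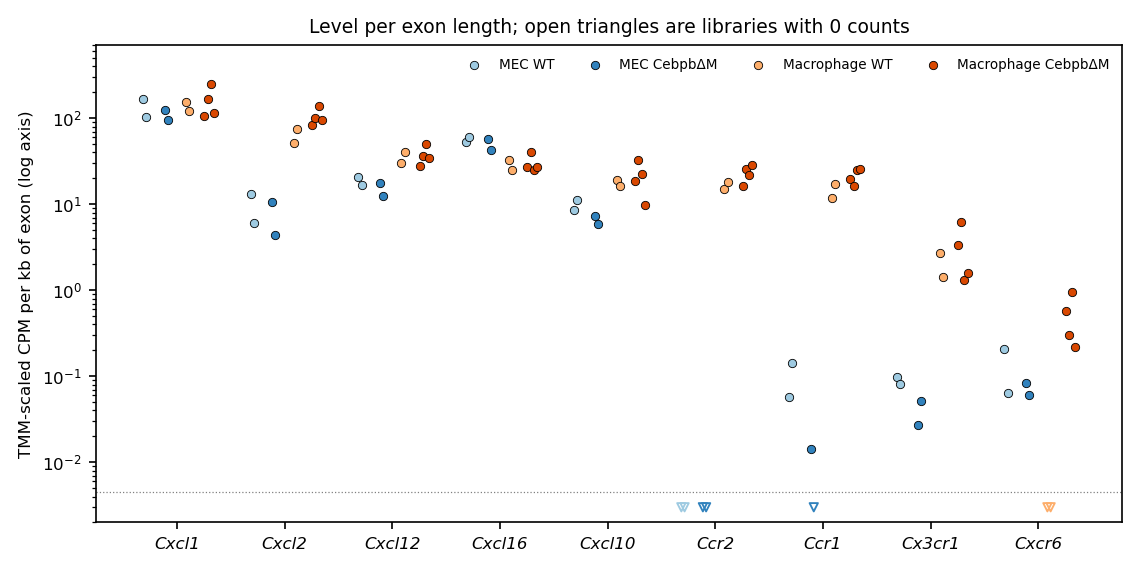
The vertical log axis gives TMM-scaled CPM per kb of annotated exon for the 9 genes on the horizontal axis. Each point is a library of one of the 4 groups, and open triangles under the dotted line are libraries with 0 counts. Cxcl1 is the highest of the genes in all 4 groups by mean, and Ccr2, Ccr1 and Cx3cr1 drop to at most 0.143 CPM per kb in MECs.

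Levels of different genes were compared per kb of exon. In WT MECs the order of mean CPM per kb was *Cxcl1* (136), *Cxcl16* (56.7), *Cxcl12* (18.7), *Cxcl10* (9.89) and *Cxcl2* (9.67), and only the last pair overlapped. The 4 receptors were at or under 0.136 CPM per kb there. In *Cebpb*ΔM MECs the order was *Cxcl1* (110), *Cxcl16* (49.7), *Cxcl12* (15.1), *Cxcl2* (7.45) and *Cxcl10* (6.67), again with overlap of the last pair alone. MECs were thus led by *Cxcl1* and *Cxcl16* in both genotypes.

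In WT macrophages the order was *Cxcl1* (137), *Cxcl2* (63.8), *Cxcl12* (35.0), *Cxcl16* (28.7), *Cxcl10* (17.6), *Ccr2* (16.4), *Ccr1* (14.5), *Cx3cr1* (2.07) and *Cxcr6* (0) in mean CPM per kb. Neighbors overlapped between *Cxcl12* and *Cxcl16*, *Cxcl10* and *Ccr2*, and *Ccr2* and *Ccr1*. In *Cebpb*ΔM macrophages the order was *Cxcl1* (159), *Cxcl2* (105), *Cxcl12* (37.2), *Cxcl16* (29.9), *Ccr2* (23.1), *Ccr1* (21.5), *Cxcl10* (20.9), *Cx3cr1* (3.09) and *Cxcr6* (0.514). There the libraries of neighboring genes did not overlap only between *Cxcl2* and *Cxcl12*, *Cxcl10* and *Cx3cr1*, and *Cx3cr1* and *Cxcr6*.

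To ask what the loss of C/EBPβ in myeloid cells changed, *Cebpb*ΔM macrophages were compared with WT macrophages by edgeR's QL test over 17772 genes. None of the 9 genes passed (0 of 9), nor did any gene tested (0%). An unadjusted *P* under 0.05 was given to 1534 genes, 2 of them *Cxcl2* and *Cxcr6*. The likelihood ratio test called 138 genes (0.777%) and DESeq2 called 201 (1.13%), and the single one of the 9 genes among each was *Cxcr6*. No overlap between the genotypes was seen for 2 of the 9 genes, *Cxcl2* and *Cxcr6*, and for 18.5% of all genes tested. The median log2 fold change of the 9 genes was 0.47, with 9 of 9 above 0, and that of all genes was 0.004, with 8954 of 17772 above 0.

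*Cxcl2* was 132 ± 35.1 CPM (SD, n = 2) in WT macrophages and 217 ± 49.2 CPM (SD, n = 4) in *Cebpb*ΔM macrophages, and every *Cebpb*ΔM library was above both WT libraries. The log2 fold change was 0.69 (SE 0.25, edgeR adjusted *P* = 0.521), and the adjusted *P* was 0.338 by the likelihood ratio test and 0.219 by DESeq2. *Cxcl1*, the neighboring ligand of the same receptor, was 257 ± 43.5 CPM (SD, n = 2) in WT and 298 ± 123 CPM (SD, n = 4) in *Cebpb*ΔM. Its genotypes overlapped, its log2 fold change was 0.19 (SE 0.34, edgeR adjusted *P* = 0.927), and without *Cebpb*ΔM macrophage 6 the sign was opposite (-0.11).

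*Cxcr6* had 0 counts in both WT macrophage libraries and 7 to 34 counts in the 4 *Cebpb*ΔM libraries, a mean of 0.993 ± 0.642 CPM (SD, n = 4). This mean was at least 6.77-fold above the floor of 3 counts per library in WT. That bound covers the WT side only and not the spread in *Cebpb*ΔM, where the lowest library was at 0.420 CPM. The fitted log2 fold change of 7.26 (SE 1.73, edgeR adjusted *P* = 0.452) is no bound, since its WT side is 0. The likelihood ratio test gave an adjusted *P* of 0.00762 and DESeq2 one of 0.0344. *Cxcr6* passed the filter only through *Cebpb*ΔM macrophages 4 and 6, the group in which it was higher. These calls are therefore no independent support for a higher level.

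The markers of T cells and natural killer cells, which are known to carry CXCR6, were mixed, and 0 of the 4 that were tested passed the QL test. The summed level of 10 such markers was 8.18 and 12.5 CPM in WT macrophages 4 and 5 and 20.2, 23.6, 17.4 and 15.0 CPM in *Cebpb*ΔM macrophages 4 to 7, without overlap. Most of this sum was *Cd4* (1.66 and 2.52 CPM in WT, 3.36 to 11.9 CPM in *Cebpb*ΔM) and *Lck* (2.81 and 5.81 CPM, 5.54 to 8.67 CPM), while *Cd3d* and *Cd3e* overlapped between the genotypes. In WT 6 of 10 were above the floor in at least 1 library, with *Cd3g*, *Cd8a*, *Icos* and *Klrb1c* at 0. In *Cebpb*ΔM 9 of 10 were, with *Klrb1c* at 0. The 4 *Cebpb*ΔM libraries gave more chances of this than the 2 WT libraries, so these numbers are not a like comparison. *Cd8a* was counted 6, 0, 0 and 1 and *Cd3g* 8, 13, 0 and 0 in *Cebpb*ΔM 4 to 7. *Icos*, a costimulatory receptor of T cells, was counted 0 and 0 in WT and 28, 11, 50 and 36 in *Cebpb*ΔM 4 to 7. In contrast, *Ncr1*, a receptor of natural killer cells, was counted 33 and 8 in WT and 0, 0, 1 and 9 in *Cebpb*ΔM, and *Nkg7*, a granule gene of cytotoxic cells, was 0.652 and 2.57 CPM in WT and 0.300 to 0.682 CPM in *Cebpb*ΔM, both with overlap. These marker genes were named after their values were seen, and the part of these cells in the *Cxcr6* counts was not tested.

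The 3 macrophage receptors had higher means in *Cebpb*ΔM, with overlap of the genotypes for each. *Ccr1* was 41.1 ± 11.3 CPM (SD, n = 2) in WT and 61.0 ± 12.8 CPM (SD, n = 4) in *Cebpb*ΔM, a log2 fold change of 0.54 (SE 0.26, edgeR adjusted *P* = 0.599). *Ccr2* was 111 ± 14.4 CPM (SD, n = 2) in WT and 156 ± 35.9 CPM (SD, n = 4) in *Cebpb*ΔM, a log2 fold change of 0.47 (SE 0.24, edgeR adjusted *P* = 0.633). The marker sum of dendritic cells, which can carry CCR2, was 170 to 262 CPM in WT and 289 to 581 CPM in *Cebpb*ΔM, without overlap, but it was made up mostly of *Cd209a* (120 and 190 CPM, 204 to 457 CPM) and *Siglech* (16.7 and 27.5 CPM, 56.6 to 94.4 CPM). The other 4 of the 6 markers overlapped, 0 of 6 passed the QL test, and the median log2 fold change of the list was 0.088 with 4 of 6 above 0. Monocyte markers summed to 774 to 874 and 611 to 962 CPM, with overlap, and most of this was *Fn1* (663 and 783 CPM, 539 to 861 CPM). Of the 5 monocyte markers 0 passed the QL test and 0 had a log2 fold change above 0, with a median of -0.335. *Ly6c2* (6.17 and 5.67 CPM, 3.62 to 5.23 CPM) and *Chil3* (1.45 and 1.33 CPM, 0 to 0.961 CPM) were lower in *Cebpb*ΔM without overlap. *Fn1*, *Ly6c2* and *Chil3* were named after their values were seen. The part of these cells in the receptor levels was not tested. *Cx3cr1* was 9.33 ± 4.18 CPM (SD, n = 2) and 13.9 ± 10 CPM (SD, n = 4), with a log2 fold change of 0.56 (SE 0.63, edgeR adjusted *P* = 0.869) that was -0.022 without *Cebpb*ΔM macrophage 5.

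The remaining ligands differed by less than their spread. *Cxcl10* was 39.6 ± 4.85 CPM (SD, n = 2) in WT and 47.1 ± 21.2 CPM (SD, n = 4) in *Cebpb*ΔM macrophages, *Cxcl12* was 286 ± 59.8 and 304 ± 77.7 CPM, and *Cxcl16* was 86.7 ± 15.6 and 90.4 ± 22 CPM. Their log2 fold changes were 0.23 (SE 0.40), 0.06 (SE 0.25) and 0.04 (SE 0.24), with edgeR adjusted *P* of 0.926, 0.972 and 0.984. All 3 signs were opposite in at least 1 leave-one-out fit.

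**Figure D3:**
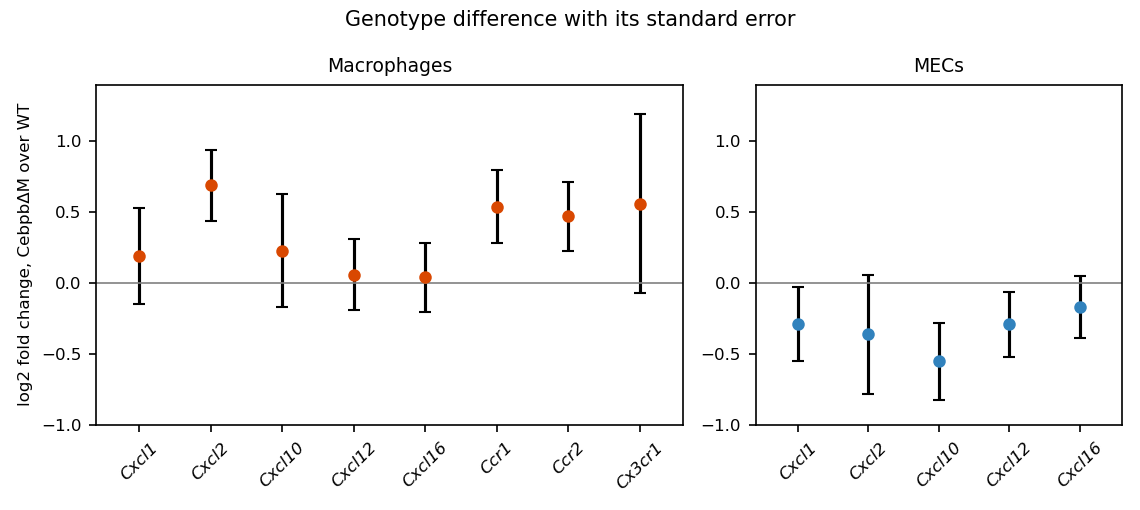
Points give the log2 fold change of CebpbΔM over WT from the QL fits and bars its standard error, for macrophages (left) and MECs (right). Genes at or below the filter in MECs are not drawn there, and Cxcr6 is left out because its WT macrophage level is 0. All 8 macrophage points lie above 0 and all 5 MEC points below 0, and no gene passed the adjusted P of 0.05.

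Because the macrophage marker sum was itself higher in *Cebpb*ΔM, each level was also set against that sum in the same library. *Cxcl2* came to 3.87% and 3.77% of the marker sum in WT macrophages 4 and 5 and to 3.88%, 4.36%, 4.42% and 3.36% in *Cebpb*ΔM 4 to 7. On this scale the genotypes overlapped, at 3.82% ± 0.0726 (SD, n = 2) and 4.0% ± 0.491 (SD, n = 4). *Ccr1* was 1.19% ± 0.0124 (SD, n = 2) in WT and 1.13% ± 0.14 (SD, n = 4) in *Cebpb*ΔM, and *Ccr2* was 3.27% ± 0.517 and 2.91% ± 0.654, also with overlap. *Cxcl12*, at 8.82% and 7.90% in WT and 5.13%, 6.15%, 6.35% and 4.76% in *Cebpb*ΔM, was lower in every *Cebpb*ΔM library. Its CPM overlapped between the genotypes and the marker sum was higher in every *Cebpb*ΔM library, so the divisor itself lowers this share. How many of all genes do not overlap on this scale was not counted, and the part of other cells in *Cxcl12* was not tested. With the mean log2 level of the 8 markers as a covariate, the log2 fold change was 0.22 (SE 0.21, edgeR adjusted *P* = 0.697) for *Cxcl2*, 0.10 (SE 0.24, edgeR adjusted *P* = 0.906) for *Ccr1*, 0.19 (SE 0.30, edgeR adjusted *P* = 0.828) for *Ccr2*, 1.71 (SE 0.61, edgeR adjusted *P* = 0.333) for *Cx3cr1* and -0.42 (SE 0.22, edgeR adjusted *P* = 0.474) for *Cxcl12*. With epithelial markers as the covariate, *Cxcl2* was at 0.68 (SE 0.22, edgeR adjusted *P* = 0.367) and *Ccr1* at 0.52 (SE 0.21, edgeR adjusted *P* = 0.462). The macrophage marker sums of the genotypes did not overlap, so macrophage content and genotype cannot be fully told apart in these libraries. Whether the deletion changed the markers themselves was not tested.

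**Figure D4:**
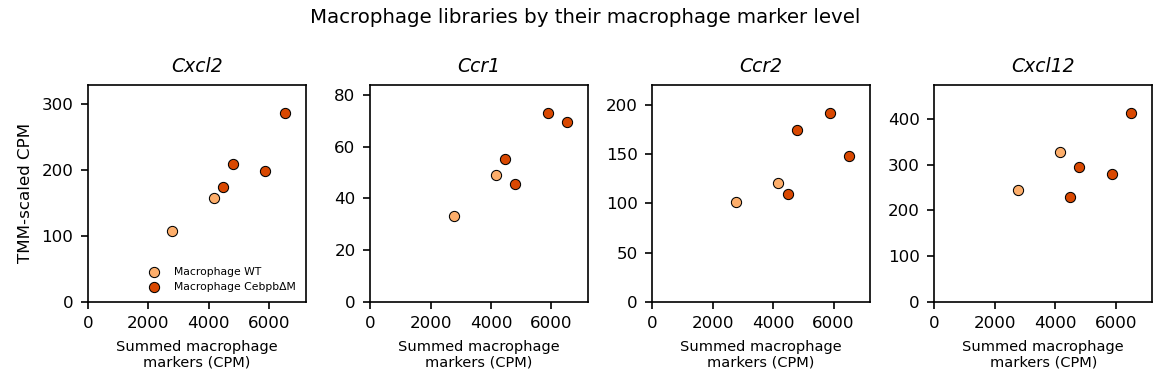
Each point is 1 of the 6 macrophage libraries, with the summed TMM-scaled CPM of 8 macrophage markers on the horizontal axis and the TMM-scaled CPM of the named gene on the vertical axis. The 2 WT libraries have the lowest marker sums (2765 and 4158 CPM) and the lowest Cxcl2. Over the 6 libraries Cxcl2 is 3.36% to 4.42% of the marker sum and Ccr1 0.955% to 1.25%. Marker sum and genotype go together here and cannot be told apart.

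In MECs, the same question was asked of cells whose own *Cebpb* the Cre does not target. Of the 9 genes, the 5 ligands passed the filter and the 4 receptors did not. None of the 5 was called by the QL test (0 of 5), where 8 of 15698 genes were (0.0510%), and 0 of the 5 had an unadjusted *P* under 0.05, where 851 of all genes did. The likelihood ratio test and DESeq2, which called 179 and 161 genes, also called 0 of the 5. No overlap between the genotypes was seen for *Cxcl10* alone, and for 28.2% of all genes tested. All 5 log2 fold changes were below 0, with a median of -0.29, where 7634 of 15698 genes were above 0 and the median was -0.008.

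*Cxcl10* was 22.3 ± 4.51 CPM (SD, n = 2) in WT MECs and 15.0 ± 2.28 CPM (SD, n = 2) in *Cebpb*ΔM MECs, a log2 fold change of -0.55 (SE 0.27, edgeR adjusted *P* = 0.978). The 8 interferon-stimulated genes had summed levels of 91.5 and 215 CPM in WT MECs 1 and 3 and 153 and 76.9 CPM in *Cebpb*ΔM MECs 1 and 3, which overlapped. *Cxcl1* was 255 ± 88.1 and 206 ± 35.4 CPM (SD, n = 2 each), *Cxcl2* 20 ± 10.3 and 15.4 ± 8.92 CPM, *Cxcl12* 153 ± 20.7 and 124 ± 30.5 CPM, and *Cxcl16* 171 ± 17.4 and 150 ± 31.6 CPM in WT and *Cebpb*ΔM. Their log2 fold changes were -0.29 (SE 0.26), -0.36 (SE 0.42), -0.29 (SE 0.23) and -0.17 (SE 0.22), with edgeR adjusted *P* of 1.0 for each. For *Cxcl1* and *Cxcl2* the sign was opposite in at least 1 leave-one-out fit (up to 0.099 and 0.28), and for *Cxcl16* the value reached 0.0028.

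Whether genotype acted differently in macrophages than in MECs was tested as an interaction in the fit of all 10 libraries. None of the 9 genes was called by the QL test (0 of 9), nor was any of the 18323 tested (0%), of which 951 had an unadjusted *P* under 0.05, *Cxcr6* and *Ccr1* among them. The likelihood ratio test called 53 genes (0.289%), again with *Cxcr6* and *Ccr1* among them (adjusted *P* = 0.0196 and 0.0425), and DESeq2 called 28 with none of the 9 genes. Both of these rest on very few counts on one side, 0 in WT macrophages for *Cxcr6* and 0 to 10 in each MEC library for *Ccr1*. *Cxcr6* also passed the filter of this fit only through *Cebpb*ΔM macrophages 4 and 6. *Cxcl2* had a difference of 1.09 (SE 0.58, edgeR adjusted *P* = 0.976), *Cxcl10* of 0.82 (SE 0.57, edgeR adjusted *P* = 0.997), and *Cxcl1*, *Cxcl12* and *Cxcl16* of 0.52, 0.40 and 0.25 on the log2 scale, each with an adjusted *P* of 1.0. *Cx3cr1* had 1.74 (SE 1.10, edgeR adjusted *P* = 0.990). For *Ccr2*, with 0 counts in all MECs, this difference has no meaning.

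Ligands and receptors that pair with the 9 genes were followed in the same fits. *Cxcr2*, the receptor of CXCL1 and CXCL2, was at or near 0 in every group and was not tested. *Cxcr3*, the receptor of CXCL10, had 0 counts in MECs, 8.73 and 10.5 CPM in WT macrophages 4 and 5 and 13.7, 11.5, 25.0 and 18.8 CPM in *Cebpb*ΔM macrophages 4 to 7. By its mean it was at least 79.1-fold higher in macrophages in WT (edgeR adjusted *P* = 3.66e-05) and at least 145-fold higher in *Cebpb*ΔM (edgeR adjusted *P* = 1.26e-05). The macrophage genotypes did not overlap for *Cxcr3*, with a log2 fold change of 0.81 (SE 0.35, edgeR adjusted *P* = 0.575).

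*Cxcr4* and *Ackr3* encode the signaling and the scavenging receptor of CXCL12. *Cxcr4* had 8.73 ± 0.783 CPM (SD, n = 2) in WT and 12.3 ± 1.59 CPM (SD, n = 4) in *Cebpb*ΔM macrophages, without overlap (log2 fold change 0.47, SE 0.25, edgeR adjusted *P* = 0.652), and was 1.07 (SE 0.34, edgeR adjusted *P* = 0.0386) higher on the log2 scale in WT macrophages than in WT MECs. That call was lost with no low-count filter (edgeR adjusted *P* = 0.0775) and without WT MEC 1 (0.218), WT MEC 3 (0.0830), WT macrophage 4 (0.0502) or WT macrophage 5 (0.111). *Ackr3* was 97.0 ± 12.8 and 108 ± 38.8 CPM in the macrophage genotypes and did not differ past the threshold in any comparison. In MECs it was 107 ± 33.0 and 72.5 ± 14.1 CPM (SD, n = 2 each), with no overlap and a log2 fold change of -0.55 (SE 0.25, edgeR adjusted *P* = 0.918).

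*Cx3cl1*, the ligand of CX3CR1, was distributed like *Cxcl16* and opposite to its receptor. It had 391 ± 24.1 CPM (SD, n = 2) in WT MECs and 150 ± 19.8 CPM (SD, n = 2) in WT macrophages, a log2 difference of -1.38 (SE 0.31, edgeR adjusted *P* = 0.00730), and -1.38 (SE 0.25, edgeR adjusted *P* = 0.00160) in *Cebpb*ΔM. Without WT macrophage 5 the WT call was lost (edgeR adjusted *P* = 0.0667). Genotypes overlapped in both cell types, with log2 fold changes of -0.08 (SE 0.27, edgeR adjusted *P* = 0.968) in macrophages and -0.04 (SE 0.23, edgeR adjusted *P* = 1.0) in MECs. Of the proteases named after their values were seen, *Adam10*, which encodes a protease that sheds CXCL16 and CX3CL1, was 321 and 306 CPM in WT macrophages and 184, 234, 200 and 241 CPM in *Cebpb*ΔM macrophages, without overlap (log2 fold change -0.57, SE 0.16, edgeR adjusted *P* = 0.488), and *Adam17*, the other such protease, had a log2 fold change of -0.02 (SE 0.19, edgeR adjusted *P* = 0.991).

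The CC ligands of CCR1 and CCR2 were higher in macrophages as a rule. *Ccl2* had 39.0 ± 15.3 CPM (SD, n = 2) in WT MECs and 139 ± 4.84 CPM (SD, n = 2) in WT macrophages (log2 difference 1.84, SE 0.26, edgeR adjusted *P* = 4.96e-04), and *Ccl7* had 30.6 ± 10.1 and 95.8 ± 7.0 CPM (1.65, SE 0.26, edgeR adjusted *P* = 8.95e-04). *Ccl3* had 1 to 4 counts in each MEC library and 11.7 ± 4.89 CPM (SD, n = 2) in WT macrophages. *Ccl12*, with 0 counts in MECs, was by its mean at least 96.4-fold higher in macrophages in WT and at least 152-fold in *Cebpb*ΔM. *Ccl5* did not differ past the threshold (edgeR adjusted *P* = 0.584 in WT). Between the macrophage genotypes, *Ccl7* was 90.9 and 101 CPM in WT and 132, 162, 144 and 133 CPM in *Cebpb*ΔM, without overlap (log2 fold change 0.55, SE 0.16, edgeR adjusted *P* = 0.495, DESeq2 0.0895). *Ccl2* (0.30, SE 0.16, edgeR adjusted *P* = 0.650) and *Ccl5* (1.16, SE 0.62, edgeR adjusted *P* = 0.646) also did not overlap between the macrophage genotypes, and *Ccl3* and *Ccl12* did.

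A wider list of 39 other ligands and receptors of the family held 30 genes tested between the macrophage genotypes. Of these, 0 passed the QL test, 10 had an unadjusted *P* under 0.05 (1534 of 17772 of all genes), and 26 had a log2 fold change above 0, with a median of 0.56. The likelihood ratio test and DESeq2 each called 3 of them, the CXC ligand genes *Ppbp* and *Pf4* and the CC ligand gene *Ccl8*, where they called 0.777% and 1.13% of all genes. *Pf4* was 60.8 and 62.5 CPM in WT and 92.1, 110, 146 and 148 CPM in *Cebpb*ΔM macrophages, without overlap (log2 fold change 0.98, SE 0.23, edgeR adjusted *P* = 0.452). *Ppbp* was counted 0 and 0 in WT macrophages and 11, 28, 30 and 4 in *Cebpb*ΔM macrophages 4 to 7. It passed the filter only through *Cebpb*ΔM macrophages 5 and 6, so its call is no independent support for a higher level. *Ccl8* was 92.7 and 101 CPM in WT and 193, 200, 231 and 285 CPM in *Cebpb*ΔM macrophages, without overlap (log2 fold change 1.21, SE 0.21, edgeR adjusted *P* = 0.452). In MECs 17 of the 39 were tested and 0 passed, with 6 above 0, and 1, *Cxcl15*, had an unadjusted *P* under 0.05. In these genotype comparisons *Ppbp*, *Pf4*, *Ccl8* and *Cxcl15* were named after their values were seen.

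Between the cell types, 31 of the 39 were tested. In WT 17 were higher and 2 lower in macrophages, where 14.8% and 10.7% of all genes were, and in *Cebpb*ΔM 19 were higher and 3 lower, where 18.9% and 14.7% of all genes were. Among those with the smallest *P* in WT were the CC ligand genes *Ccl6* (11.15, SE 0.71), *Ccl9* (8.90, SE 0.59) and *Ccl8* (4.57, SE 0.41), and *Pf4* (9.86, SE 0.43), with edgeR adjusted *P* from 4.32e-07 to 2.05e-05. *Ackr1*, an atypical receptor known from venular endothelium, was also higher in macrophage libraries (3.78, SE 0.42, edgeR adjusted *P* = 9.31e-05), where the endothelial and pericyte markers were higher too (6 of 6 called), and the part of these cells in its level was not tested. *Cxcl14* (-3.51, SE 0.62, edgeR adjusted *P* = 0.00201), named after its values were seen, was lower in macrophages, as was *Cx3cl1*.

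The genes whose profiles were most like each of the 9 were taken as those with the smallest root mean square difference of log2 CPM over the 10 libraries, each gene centered on its own mean, among 18322 others. For *Ccr1* these were *Cd37* (0.215), *Hal* (0.415) and *Ms4a8a* (0.430), for *Ccr2* *Cd209d* (0.254), *C1qb* (0.316) and *Lilr4b* (0.318), and for *Cx3cr1* *Gpr183* (0.472), *Rgs14* (0.580) and *Gdf3* (0.629). *Cd37*, *C1qb* and *Gpr183* are genes of leukocytes, C1q and a chemotactic receptor. Of the ligands the nearest were at 0.0774 for *Cxcl12* with *Gm15738* (then *Mrtfb* and *Mavs*), 0.131 for *Cxcl16* with *Pmm1* (then *Tmem53* and *Ndufab1*), 0.20 for *Cxcl2* with *Pltp* (then *Ifi207* and *Gm15635*), 0.213 for *Cxcl1* with *Tnfrsf1a* (then *Shisa3* and *Rhoj*) and 0.270 for *Cxcl10* with *Colgalt2* (then *Slc25a18* and *Rps6ka5*). *Cxcr6*, on the fewest counts, was nearest to *Gm38156* at 0.518, then *Kncn*. Among the 9 genes themselves the closest profiles were those of *Cxcl10* and *Cxcl12* (0.461) and of *Cxcl1* and *Cxcl12* (0.473).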

How the data were processed

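RNA was sequenced from MECs and macrophages by a low-input SMART-seq protocol. The authors trimmed reads with Trimmomatic, aligned them to GRCm38 with HISAT2 and made the deposited gene counts with featureCounts 1.6.2 and Ensembl 100, strand-specifically, with a mapping quality of at least 10. Counts were not normalized. Reads shared by overlapping genes on 1 strand can be lost. Opposite-strand genes are counted apart only if the libraries kept the strand of the RNA, which was not tested. These are *Art3* at *Cxcl10*, *Zmynd15* at *Cxcl16*, *Fyco1* at *Cxcr6* and *Tmem189* at *Cebpb*. At *Cx3cr1* they are *Wdr48*, *Ttc21a*, *1700019L13Rik*, *Gm47043*, *Gm49427* and *Gm33858*.

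Genes of at least 300 nt with more than 1 CPM in at least 2 libraries were tested with edgeR 4.0.16 (R 4.3.3), using TMM factors, the quasi-likelihood F test and Benjamini–Hochberg adjustment over all genes tested (threshold 0.05). Macrophages and MECs were fitted apart for genotype, and all 10 libraries together for cell type and for the difference of genotype effects. The SE is the size of the log2 fold change divided by the square root of F. Profile likeness used log2 CPM with a prior count of 2. The scripts were tested on simulated data. Alternatives were edgeR's likelihood ratio test, DESeq2 1.42.0, other scaling, filters and thresholds, a replicate block, other samples in the fit and leaving out each library. The members and gene lists were chosen with earlier results of these data known. Named genes are the 9 genes, *Cebpb*, their partners, at most 10 called genes of the other chemokine lists per comparison and the 3 nearest profiles, and others are said to be named after their values were seen. A few genes that this rule would name are not reported here. No source used here says that libraries came from separate mice, so *P* values measure the spread between these samples, which may be technical.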

Additional observations from a re-analysis of the deposited data

Results flagged for a closer look

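Among the 4 *Cebpb*ΔM macrophage libraries, 20 genes (the 9 genes, their partners and *Cebpb*) were examined for a single library far from the rest, and 3 had one whose gap to its nearest neighbor, as a share of the whole range, was above Dixon's critical value for 4 samples. Chance flags about 1 in 20 groups. *Cxcl16* was highest in *Cebpb*ΔM 5 at 123 CPM, with a gap of 0.872 of the range. *Cxcr2* was at 0.633 CPM in *Cebpb*ΔM 5 and at 0 in the other 3, a gap of 1.0 of the range that rests on 13 counts. *Ackr3* was highest in *Cebpb*ΔM 7 at 166 CPM, with a gap of 0.927 of the range.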

How the results depend on the processing

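For each alternative the cause of a change was not tested unless named. Between macrophage genotypes, the count of called genes went from 0 to 138 with the likelihood ratio test and 201 with DESeq2, that of the 9 genes from 0 to 1 with either (*Cxcr6*), and that of the other chemokine genes from 0 to 3 with either. In MECs the 8 called genes became 179 with the likelihood ratio test, 161 with DESeq2, 38 with no low-count filter, and 0 at an adjusted *P* of 0.01, with no scaling factors or with all 10 libraries in 1 fit, and 2 to 337 on leaving out 1 library (337 without *Cebpb*ΔM MEC 3, 98 without WT MEC 1, 42 without *Cebpb*ΔM MEC 1 and 2 without WT MEC 3). Other chemokine genes called there were 0 to 1 on leaving out 1 library (*Cxcl15* without *Cebpb*ΔM MEC 3). The likelihood ratio test called 2 of the 9 genes for the difference of genotype effects. Between WT cell types, 7 of the 9 genes became 4 at an adjusted *P* of 0.01 and 4 to 6 on leaving out 1 library.

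The labels give no link between same-numbered libraries other than the number. Correlations of their deviations from the group means were 0.129 and -0.086 in macrophages and 0.106 for both pairs in MECs. In a group of 2 libraries the deviations mirror each other, so the MEC values are equal by construction. These correlations cannot show whether same-numbered libraries share anything more. With the replicate block, the QL test called 12 genes in macrophages and 205 in MECs and the likelihood ratio test 455 and 243. Of the 9 genes, the replicate block with the likelihood ratio test called 1 in macrophages and 2 for the difference. Of the other chemokine genes, the replicate block gave 1 by the QL test and 5 by the likelihood ratio test in macrophages, and by the latter 1 in MECs and 1 for the difference. No block could be fitted between cell types, which share no replicate numbers.

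No fold change that changed sign was past the threshold. In macrophages the sign was opposite with the replicate block (both tests) for *Cxcl1* (-0.069), *Cxcl12* (-0.14), *Ackr3* (-0.13) and *Cx3cl1* (0.046), and for the difference of *Cx3cl1* (0.14). Alternatives chosen after seeing the data also reversed signs in macrophages. With macrophage markers as a covariate these were *Cxcl1* (-0.13), *Cxcl12* (-0.42), *Ackr3* (-0.17), *Cx3cl1* (0.29) and *Ccl3* (-0.13), and with replicates 4 and 5 alone *Cxcl1* (-0.033), *Cxcl12* (-0.14), *Ackr3* (-0.13) and *Cx3cl1* (0.12). Between WT cell types *Cxcl1* was -0.027 with DESeq2 and RLE, -0.0090 with filterByExpr and -0.0038 with no low-count filter. With no scaling factors, *Cxcl16* in macrophages was -0.0017, *Cxcr4* in MECs 0.0038 and *Ackr3* between WT cell types 0.033.

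Leaving out 1 library gave ranges across 0 in macrophages for *Cxcl1* (-0.11 to 0.37), *Cxcl10* (-0.074 to 0.45), *Cxcl12* (-0.14 to 0.3), *Cxcl16* (-0.15 to 0.23), *Cx3cr1* (-0.022 to 1.1), *Ackr3* (-0.16 to 0.28), *Cx3cl1* (-0.33 to 0.061) and *Ccl3* (-0.15 to 0.72). In MECs they were *Cxcl1* (-0.58 to 0.099), *Cxcl2* (-1.09 to 0.28), *Cxcl16* (-0.38 to 0.0028), *Cxcr4* (-0.47 to 0.31), *Cx3cl1* (-0.29 to 0.17), *Ccl2* (-0.38 to 0.39), *Ccl5* (-1.85 to 1.58) and *Ccl7* (-0.21 to 0.45). For the difference they were *Ccl2* (-0.057 to 0.76), *Ccl3* (-1.61 to 0.3), *Ccl5* (-0.41 to 3.07) and *Cx3cl1* (-0.28 to 0.28), and between cell types *Cxcl1* (-0.31 to 0.41) and *Ackr3* (-0.43 to 0.21) in WT and *Ccl5* (-1.15 to 2.33) in *Cebpb*ΔM.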
